A study of Mus musculus with 56 samples.

Results

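The major urinary protein (Mup) genes form a family of closely related genes in the mouse, and 10 of them (Mup1, Mup3, Mup4, Mup5, Mup7, Mup9, Mup10, Mup17, Mup20 and Mup21) were examined here in liver RNA-seq. They were chosen by their levels in these same libraries, so their levels and differences are given as a description. No p-value is printed for any of them, and counts of them past a threshold stand only beside the share of all genes that passed it. Of the 10 genes, 9 had a row among the 23813 genes of the expression table. Mup7 had none and occurred only among the older names listed for Mup1. The table held 20 genes named Mup and a number in all, so that 11 further family members could be set beside the 9. The first listed transcript of each gene was used.

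Major urinary proteins are small secreted lipocalins that are made by hepatocytes, pass into the urine and bind volatile pheromones in a central pocket, releasing them slowly from scent marks. Many Mup genes are expressed at a higher level in the liver of male than of female mice, and growth hormone pulses acting through STAT5, androgens, glucocorticoids and thyroid hormone are known to promote their expression. Mup20 encodes darcin, a male pheromone that attracts females.

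Liver RNA was measured in 3 groups of male mice with 4 libraries each, and for 16 days all mice ate food low in iodine that contained 0.15% propylthiouracil (PTU), an inhibitor of thyroid hormone synthesis. Hypothyroid WT mice (WT_PTU) received PTU and vehicle in place of hormone. Hyperthyroid WT mice (WT_T3) were injected with 5 μg of the active hormone triiodothyronine (T3) on the last 4 to 6 days, and hypothyroid L-NCOR1ΔID mice (mNCOR_PTU) received PTU and carry a shortened form of the nuclear receptor corepressor NCOR1 in the liver that lacks the domains for interaction with the thyroid hormone receptor. L-NCOR1ΔID mice were kept on a mixed C57BL/6 and 129S background, and whether the Mup alleles of the 12 mice differed was not tested. Over all its animals, the study gives a lower mean age for L-NCOR1ΔID mice than for either WT group. The ages of the 12 mice and the background of the WT mice among them are not stated in the sources used here. Any part of age or background in the mutant comparison was not tested. No sample was taken from mice with normal thyroid hormone levels, so each difference from hypothyroid WT mice is one between PTU-treated animals.

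Values are RPKM, reads scaled to transcript length and to the aligned reads of the library, and the log2FC given below is the difference of group means of log2(RPKM + 0.1), which understates the change of genes near 0. The relative depth of the libraries, read from the steps between low RPKM values, ranged from 0.93 to 1.22 in hypothyroid WT, from 0.678 to 0.835 in hyperthyroid WT and from 1.21 to 1.37 in L-NCOR1ΔID mice. No pair of libraries held identical values. Ncor1 itself had 14.1 to 15.6 RPKM in hypothyroid WT and 12.1 to 13.9 RPKM in L-NCOR1ΔID mice, and since the mutation removes only some exons this level does not check the genotype. Hepatocyte markers were abundant, with 20598 to 37284 RPKM of Alb in the hypothyroid groups, while the kidney genes Umod and Slc12a1 had at most 0.031 RPKM in any library and the lacrimal gland gene Prol1 was listed at 0 in all 12. The remaining gene of that list, the amylase gene Amy1, which the liver also expresses, had 160 to 176 RPKM in hypothyroid WT, 222 to 393 RPKM in hyperthyroid WT and 117 to 176 RPKM in L-NCOR1ΔID mice (log2FC after T3 0.79, limma adjusted p = 0.00257), and its part in the results was not tested. In bulk tissue, fewer cells of a type and less RNA per cell cannot be told apart.

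The sequences show how alike the genes are. In mm9, the 21 annotated Mup genes lay on chromosome 4 between positions 59969676 and 61811897, with 20 on the minus strand and 1, Mup6, on the plus strand, and each had 6 or 7 exons. No other protein-coding gene lay between them, while 20 Mup pseudogenes did. A stretch of 90 coding bases near the translation start of 6 listed genes is given here, taken from GENCODE M1 transcripts, in which capitals mark bases that differ from Mup10. Mup10, Mup17 and Mup9 are shown because they were the 3 listed genes with the highest levels in hyperthyroid mice, Mup3, Mup20 and Mup21 because they behaved otherwise.
Mup10: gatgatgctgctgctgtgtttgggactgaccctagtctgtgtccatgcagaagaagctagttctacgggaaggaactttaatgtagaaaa
Mup17: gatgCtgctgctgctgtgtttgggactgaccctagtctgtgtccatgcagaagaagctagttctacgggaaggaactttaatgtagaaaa
Mup9: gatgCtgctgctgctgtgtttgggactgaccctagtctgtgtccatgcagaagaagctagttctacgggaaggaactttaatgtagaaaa
Mup3: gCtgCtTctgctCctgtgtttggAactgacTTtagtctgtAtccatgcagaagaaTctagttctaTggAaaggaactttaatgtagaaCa
Mup20: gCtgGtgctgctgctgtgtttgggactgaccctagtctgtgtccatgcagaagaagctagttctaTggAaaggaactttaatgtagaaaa
Mup21: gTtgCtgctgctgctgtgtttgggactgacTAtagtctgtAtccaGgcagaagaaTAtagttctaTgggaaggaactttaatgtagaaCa
Mup17 and Mup9 each differed from Mup10 at 1 of these 90 bases and not from each other. Mup20 differed at 4, Mup21 at 10 and Mup3 at 12. The stretch spans coding bases 6 to 95 of Mup10, Mup17 and Mup9, bases 9 to 98 of Mup20 and Mup21 and bases 18 to 107 of Mup3, in genes at chr4:60591132-60595071 (Mup10), chr4:61252961-61256903 (Mup17), chr4:60430918-60434806 (Mup9), chr4:61744510-61748376 (Mup3), chr4:61711268-61715192 (Mup20) and chr4:61808966-61811897 (Mup21), all on the minus strand.

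Over the whole coding sequence, identity between listed genes ranged from 83.2% to 99.6%. Mup9 differed from its nearest relative, Mup19, at 1 of 543 bases, Mup10 from Mup9 at 2, Mup1 from Mup12 at 2, and Mup7 from Mup12 and Mup17 from Mup13 at 4. Mup3 and Mup21 were nearest to each other, with 95.4% identity, and Mup4 and Mup5 shared 92.6%. Mup20 was 91.7% identical to its nearest relative, Mup5. The listed genes therefore fell into near-identical copies (Mup1, Mup7, Mup9, Mup10, Mup17) and more distinct members (Mup3, Mup4, Mup5, Mup20, Mup21).

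This matters for the counts, because the study worked with uniquely aligned reads. Of all 50-base windows of the transcript, 87.4% were found at no other place in the genome for Mup4, 83.1% for Mup3, 81.6% for Mup5, 80.7% for Mup21 and 39.1% for Mup20. The share was 21.9% for Mup17, 19.5% for Mup10, 7.85% for Mup9, 5.24% for Mup1 and 4.33% for Mup7. RPKM divides by the full transcript length, so the levels of the near-identical copies rest on a small part of each transcript, and the order of levels between genes below is that of the deposited values.

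**Figure D1:**
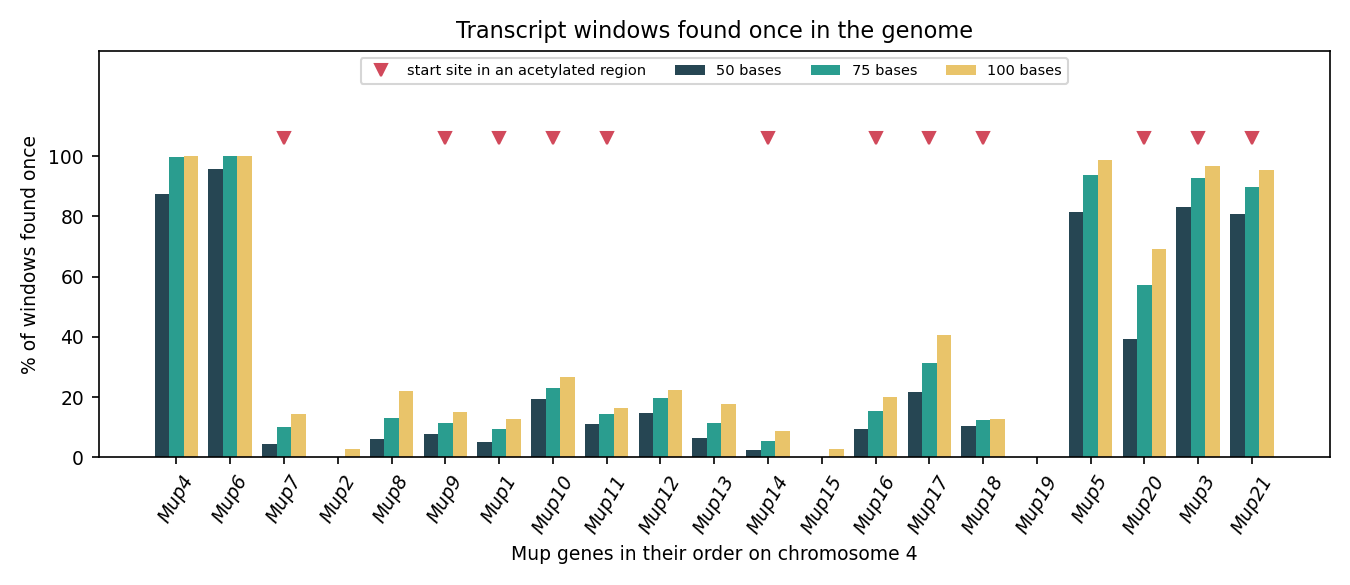
Bars give the percentage of transcript windows of 50, 75 and 100 bases that occur at 1 place in the mouse genome, for the 21 Mup genes in their order on chromosome 4; triangles mark genes whose start site lies in a deposited acetylated region. Mup4, Mup6, Mup5, Mup3 and Mup21 stand above 80% at 50 bases, and most other genes lie below 22%.

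Promoter sequences were likewise close. The 120 bases before the annotated start are shown for Mup10, Mup17, Mup3 and Mup21, as RefSeq gives them for GRCm38.p6, with the letters TATATAA in capitals. They are shown because Mup10 and Mup17 were higher, Mup21 was lower and Mup3 was similar in hyperthyroid mice.
Mup10, chr4:60582156-60582275, minus strand: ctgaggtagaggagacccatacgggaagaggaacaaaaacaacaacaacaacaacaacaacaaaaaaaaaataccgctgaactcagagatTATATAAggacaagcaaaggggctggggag
Mup17, chr4:61595833-61595952, minus strand: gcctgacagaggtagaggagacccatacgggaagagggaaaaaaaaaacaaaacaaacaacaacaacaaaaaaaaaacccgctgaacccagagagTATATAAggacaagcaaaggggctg
Mup3, chr4:62087318-62087437, minus strand: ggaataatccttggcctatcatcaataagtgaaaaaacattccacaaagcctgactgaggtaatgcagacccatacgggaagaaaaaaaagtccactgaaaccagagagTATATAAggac
Mup21, chr4:62150842-62150961, minus strand: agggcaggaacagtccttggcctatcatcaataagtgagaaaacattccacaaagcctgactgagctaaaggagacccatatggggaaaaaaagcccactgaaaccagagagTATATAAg
Identity was taken over aligned bases of the 250 before the start, with gaps left out. Mup10 and Mup17 were 94.3% identical over 244 bases, Mup3 and Mup21 93.4% over 244, and Mup17 and Mup21 86.2% over 195. RefSeq promoters were at hand for 7 listed genes (Mup3, Mup4, Mup7, Mup9, Mup10, Mup17 and Mup21) and for 14 Mup genes in all. The annotated start was not placed alike in all genes, since TATATAA began at position -30 from it in Mup10, -25 in Mup17, -11 in Mup3 and -8 in Mup21.

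Motifs were searched on both strands from 250 bases before to 50 bases after the start. TATATAA, a motif chosen after these sequences were seen, was present in 13 of the 14 Mup promoters and in 3.24% of all 32851 promoters. The thyroid hormone receptor motif, 2 AGGTCA half-sites in the same direction with 4 bases between them (DR4), was found in 0 of 14 and in 0.0152% of all promoters. A single AGGTCA occurred in 1 Mup promoter, that of Mup4, against 16.3% of all. TTCNNNGAA (STAT), TTNNGCAA (C/EBP) and CAAAGTCCA (HNF4) were found in 0 of 14, against 8.30%, 10.8% and 0.475% of all promoters. AGAACA, a half-site of the glucocorticoid and androgen receptors, occurred in Mup3 and Mup21 and in 19.0% of all promoters. These counts say only which letters are in this window.

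In hypothyroid WT mice, Mup20 and Mup3 made up most of the Mup RNA. Mup20 was the gene with the fourth highest mean level of all genes in the liver. Its 4 libraries had 6417, 6483, 4006 and 4713 RPKM (mean 5405 ± 1242, SD, n = 4). Mup3, a member that is distinct in sequence, followed with 2419, 3926, 3307 and 2497 RPKM (mean 3037 ± 716), and the ranges of the 2 genes did not overlap. Mup10 (mean 684 ± 680), Mup21 (379 ± 127), Mup9 (228 ± 341) and Mup17 (163 ± 208) came next with ranges that overlapped each other. Mup5, Mup1 and Mup4 were low, with means of 3.69, 3.24 and 1.91 RPKM.

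After T3 the order was another one. Mup10 (mean 6635 ± 509 RPKM), Mup17 (5583 ± 1710) and Mup9 (4309 ± 1389) led, with overlapping ranges, and ranked at places 3, 4 and 8 among all genes. Mup3 (2523 ± 472) and Mup20 (873 ± 439) lay below them, each with a range apart from its neighbours in this order. Of the 9 listed genes, 6 were past the call rule in the higher direction and 2 in the lower direction. The rule was a limma adjusted p under 0.01 with a log2FC above 1 in size, which 8.28% of the 13941 genes tested passed as higher and 3.47% as lower. After scaling of the libraries by the median of gene ratios the genes called across the table numbered 804 higher and 640 lower, in place of 1155 and 484, while the listed genes numbered 6 and 2 as before. With all 12 libraries in 1 fit 3 listed genes were called higher, and with 1 library left out 4 to 6. Since these values chose the genes, nothing is read from that count.

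Of the listed genes, Mup17 and Mup9 had the highest log2FC, and this order depended on single libraries. Mup17 had 13.3, 106.4, 470 and 61.3 RPKM in hypothyroid WT mice and 3918, 4429, 7579 and 6407 RPKM in hyperthyroid WT mice (log2FC 6.07 ± 0.88, SE). Mup9 had 3.65, 78.8, 736 and 93.9 RPKM against 3240, 2987, 5373 and 5637 RPKM (log2FC 5.94 ± 1.29). In both genes every hyperthyroid library lay above every hypothyroid one, and the hypothyroid libraries differed far more among themselves than the hyperthyroid ones. The highest hypothyroid value of Mup9 was 202 times the lowest, against 1.89 times in hyperthyroid mice. Without hypothyroid WT replicate 1 the log2FC was 5.21 for Mup17 and 4.55 for Mup9, and without replicate 3 it was 6.92 and 7.09. Mup9 was not past the call rule without hypothyroid WT replicate 2 or 4 or hyperthyroid WT replicate 3 or 4.

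Mup10 had 162, 629, 1660 and 285 RPKM in hypothyroid WT mice. In hyperthyroid WT mice it had 7292, 6200, 6268 and 6779 RPKM (log2FC 3.82 ± 0.60), and with a coefficient of variation of 7.67% it was the listed gene with the smallest spread in that group. The groups did not overlap.

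Mup1, Mup5 and Mup4 were higher as well, at a level lower by orders of magnitude. Mup1 had 3.19, 4.56, 4.29 and 0.893 RPKM in hypothyroid and 35.7, 21.2, 35.7 and 24.9 RPKM in hyperthyroid WT mice (log2FC 3.33 ± 0.45). Mup5 had 1.88, 6.10, 6.06 and 0.725 RPKM against 24.2, 17.9, 20.9 and 16.4 RPKM (log2FC 2.81 ± 0.58). Mup4 had 1.21, 2.00, 3.75 and 0.662 RPKM against 10.6, 9.53, 12.5 and 8.29 RPKM (log2FC 2.60 ± 0.42). No library of one group reached the range of the other in these 3 genes, and Mup4 and Mup5 are among the genes with over 80% of their 50-base windows found once.

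Mup20 and Mup21 differed in the opposite direction. Mup20, which encodes darcin, had 817, 429, 766 and 1479 RPKM in hyperthyroid WT mice, all below the 4006 RPKM of the lowest hypothyroid WT library (log2FC -2.74 ± 0.34). Mup21 had 212, 350, 489 and 466 RPKM in hypothyroid and 8.44, 8.93, 13.2 and 11.04 RPKM in hyperthyroid WT mice (log2FC -5.13 ± 0.26), a level 34.9 times lower. Mup21 is the last Mup gene of the cluster and also the one with the fewest exons.

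Mup3 lies between Mup20 and Mup21 on the chromosome. It had 2963, 2405, 1911 and 2816 RPKM in hyperthyroid WT mice, and these values overlapped the hypothyroid WT range of 2419 to 3926 RPKM (log2FC -0.26 ± 0.21). With the median scaling, which lowers the median log2FC of all genes tested from 0.23 to 0.04, the value for Mup3 was -0.46. The other 8 genes kept their direction under this scaling.

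**Figure D2:**
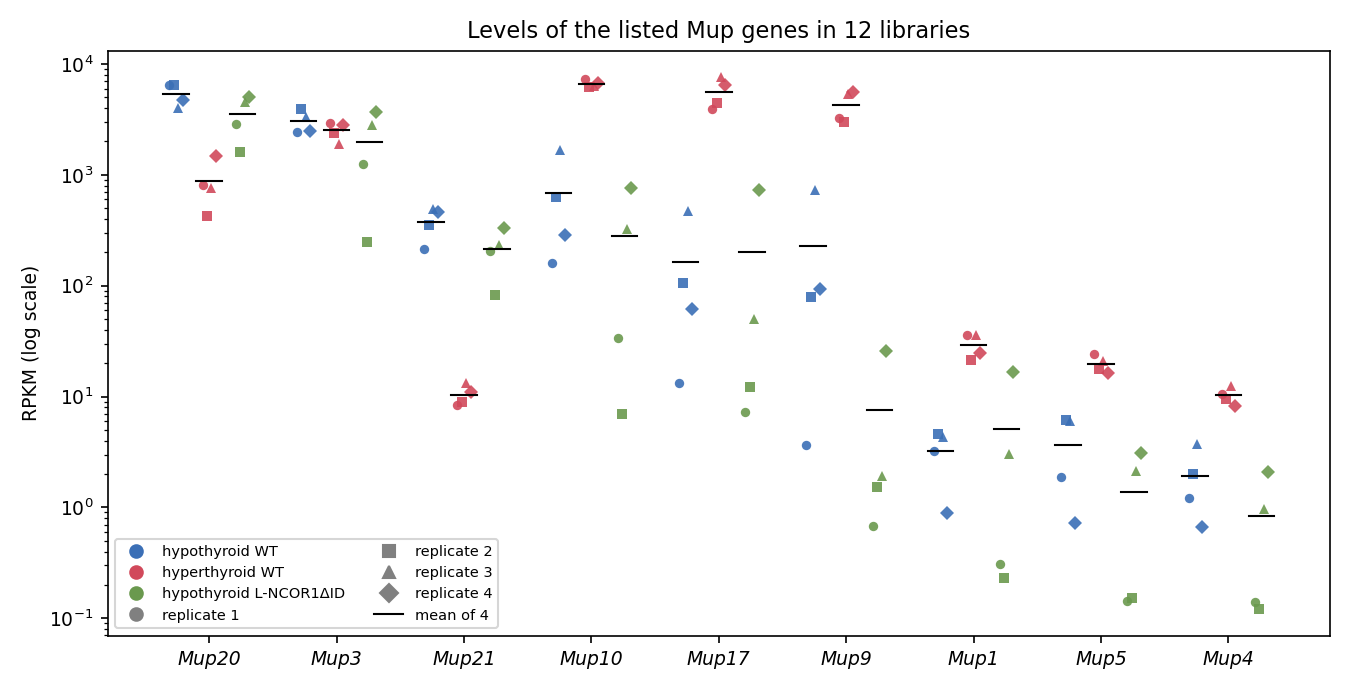
Points give the RPKM of each of 4 libraries per group on a log scale for the 9 listed Mup genes with a row, marker shapes give the replicate, and black bars are group means. Hyperthyroid libraries lie above all hypothyroid WT libraries for Mup10, Mup17, Mup9, Mup1, Mup5 and Mup4, below them for Mup20 and Mup21, and partly within and partly below their range for Mup3.

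The other Mup genes of the table resembled the first 6. All 11 (Mup2, Mup6, Mup8, Mup11 to Mup16, Mup18 and Mup19) were called higher after T3, as were 8.28% of all genes tested. The log2FC of the 11 ran from 2.62 (Mup12) to 6.23 (Mup8), with a median of 4.14. The median log2FC over all genes tested was 0.23. Mup11 reached 800 to 1354 RPKM, Mup16 794 to 1369 RPKM and Mup14 354 to 597 RPKM in hyperthyroid WT mice. The groups did not overlap for 10 of the 11, the exception being Mup18 with 14.4 RPKM in its lowest hyperthyroid and 16.04 RPKM in its highest hypothyroid library. For how many of all genes the groups did not overlap was not computed, so this count stands as a description. Mup6, with 95.8% of its 50-base windows found once, had 2.01 to 16.2 RPKM in hypothyroid and 56.7 to 92.9 RPKM in hyperthyroid WT mice. At the other extreme, none of the 50-base windows of Mup2, Mup15 and Mup19 was found once, so their values of at most 13.1 RPKM cannot be placed with certainty. The Mup15 promoter in the RefSeq table was identical to that of Mup17 over 247 aligned bases, while the deposited hyperthyroid means were 5.02 and 5583 RPKM.

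The summed level of the 9 listed genes was 9234, 11586, 10682 and 8119 RPKM in hypothyroid WT mice and 18309, 16507, 21980 and 23178 RPKM in hyperthyroid WT mice, 2.02 times higher (log2 ratio 1.01 ± 0.16, SE). No hyperthyroid library overlapped a hypothyroid one. The genes that led the hypothyroid and the hyperthyroid sum differ in their share of 50-base windows found once. It was 39.1% for Mup20 and 83.1% for Mup3, but 19.5% for Mup10, 21.9% for Mup17 and 7.85% for Mup9. The ratio is thus one of deposited values, and how far unplaced reads move it was not tested. Without Mup20, the listed gene with the highest mean, the log2 ratio was 2.16. The 20 Mup genes together held 1.98% to 2.94% of the summed RPKM of all genes in hypothyroid WT mice and 4.86% to 6.81% in hyperthyroid WT mice.

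In the deposited values, to which the same limit applies, the composition of that sum differed more than its size. Mup20 and Mup3 together held 95.0%, 88.9%, 66.7% and 88.3% of the Mup RPKM in the hypothyroid WT libraries and 10.4% to 18.2% in the hyperthyroid ones. Mup10, Mup17 and Mup9 together held 1.92% to 26.1% and 69.6% to 74.8%. The ratio of Mup20 to Mup10 was 39.6, 10.3, 2.41 and 16.5 in hypothyroid WT mice and 0.0692 to 0.218 in hyperthyroid WT mice.

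**Figure D3:**
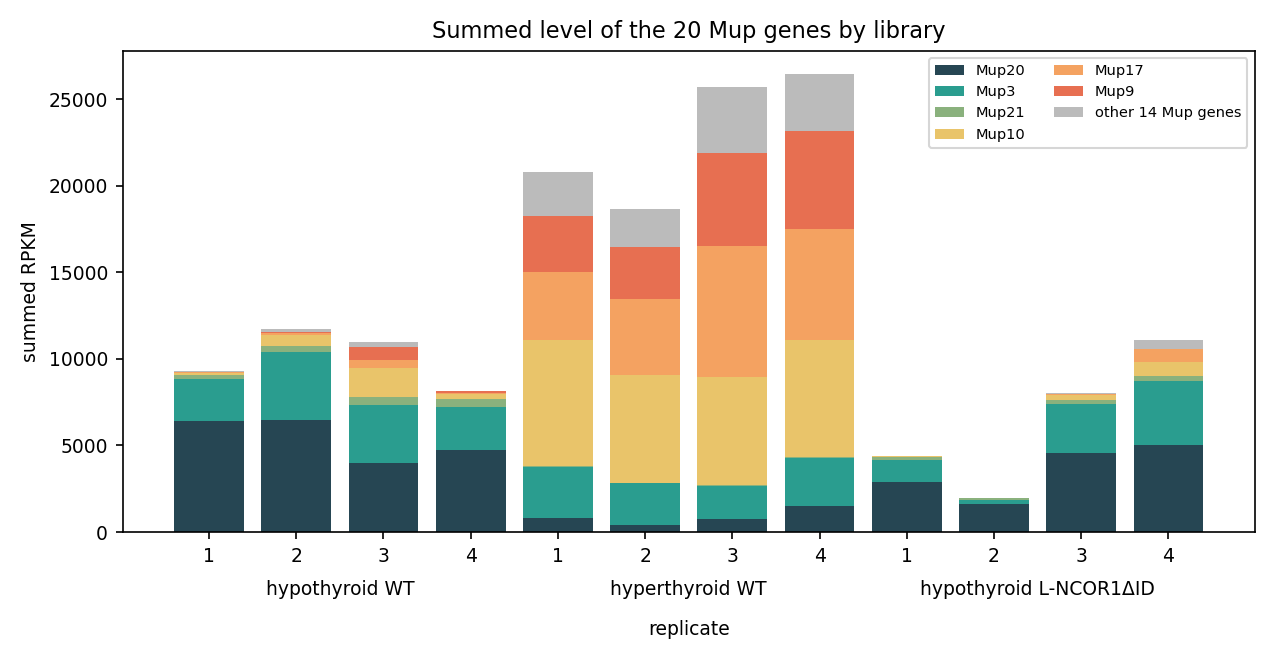
Stacked bars give the summed RPKM of the 20 Mup genes in each of the 12 libraries, split by gene. Hypothyroid WT bars reach 8167 to 11714 RPKM and consist mostly of Mup20 and Mup3, hyperthyroid WT bars reach 18641 to 26467 RPKM and consist mostly of Mup10, Mup17 and Mup9, and 2 of the 4 L-NCOR1ΔID bars are shorter than every other bar.

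In L-NCOR1ΔID mice all 9 listed genes had a mean log2 level below that of hypothyroid WT mice, but the libraries of the groups overlapped for each gene. The comparison shares its hypothyroid WT libraries with the one above. Here the call rule was a limma adjusted p under 0.01 with no fold threshold. By it 0 of the 9 were called in either direction, against 0.725% of 13790 genes tested as higher and 0.544% as lower. The log2FC ranged from -0.72 (Mup20) to -4.56 (Mup9), with a median of -1.15 against 0.03 over all genes tested. The 11 other Mup genes had a median of -1.35, and 0 of them was called.

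The L-NCOR1ΔID libraries split by replicate, though not always in 2 even pairs. For all 20 Mup genes, replicates 1 and 2 were both below replicates 3 and 4, which was so for 16.5% of the 13790 genes tested. Replicate 4 was the highest for all 20. Mup10 had 33.4, 7.01, 323 and 768 RPKM. Mup17 had 7.23, 12.2, 50.1 and 737 RPKM, and Mup11 1.79, 2.81, 8.37 and 238 RPKM, with replicate 4 far above replicate 3 in both. Mup9 had 0.674, 1.53, 1.90 and 25.9 RPKM, and here replicate 3 lay close to replicates 1 and 2.

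Genes that were not higher after T3 followed the same split with smaller distances. Mup20 had 2896, 1602, 4535 and 5036 RPKM in L-NCOR1ΔID mice (log2FC -0.72 ± 0.36). Mup3 had 1252, 250, 2830 and 3663 RPKM (log2FC -1.15 ± 0.73), so that the second library lay 14.6 times below the fourth. Mup21 had 205, 82.5, 235 and 334 RPKM (log2FC -0.92 ± 0.42).

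The low members reached the lower end of the scale. Mup1 had 0.311, 0.232, 3.05 and 16.7 RPKM, Mup4 had 0.141, 0.121, 0.970 and 2.11 RPKM, and Mup5 had 0.142, 0.152, 2.11 and 3.10 RPKM. For Mup4 and Mup5 the first 2 libraries were thus close to the pseudocount of 0.1, which limits the log2FC.

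All 9 listed genes were below the hypothyroid WT range in both L-NCOR1ΔID replicates 1 and 2, and for all 9 the range of replicates 3 and 4 overlapped it. How many of all genes lay so was not computed, and the pair was picked from these values, so the counts are a description. Without replicates 1 and 2, a choice made after seeing the data, the log2FC was 1.35 for Mup1, 1.26 for Mup17, 0.11 for Mup3 and 0.09 for Mup10, with the sign turned, and it was -0.08 for Mup5, -0.13 for Mup4, -0.15 for Mup20 and -0.36 for Mup21. Mup9 stayed lower, at -3.22. The summed level of the 9 genes was 4395, 1956, 7981 and 10587 RPKM (log2 ratio -0.92 ± 0.55, SE), and its log2 ratio was -0.095 from replicates 3 and 4 alone. The size of the whole-group difference, and its sign for Mup1, Mup3, Mup10 and Mup17, thus rested on these 2 libraries, while the sum and the other 5 genes kept their sign.

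Across the whole table, the number of genes, of 10663 with a mean of at least 1 RPKM, that differed by more than 1 on the log2 scale from the mean of the other 3 libraries was 242, 331, 113 and 378 for L-NCOR1ΔID replicates 1 to 4. This number was 121 to 164 in hypothyroid WT and 205 to 253 in hyperthyroid WT mice. Some male-biased genes split alike and others did not, and the following 2 were chosen after their values were seen. Hsd3b5, a steroid dehydrogenase, had 9.87, 1.29, 68.0 and 107 RPKM in L-NCOR1ΔID mice, while Elovl3, a fatty acid elongase, had 23.8, 2.15, 13.3 and 16.6 RPKM. Their part in the split was not tested.

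**Figure D4:**
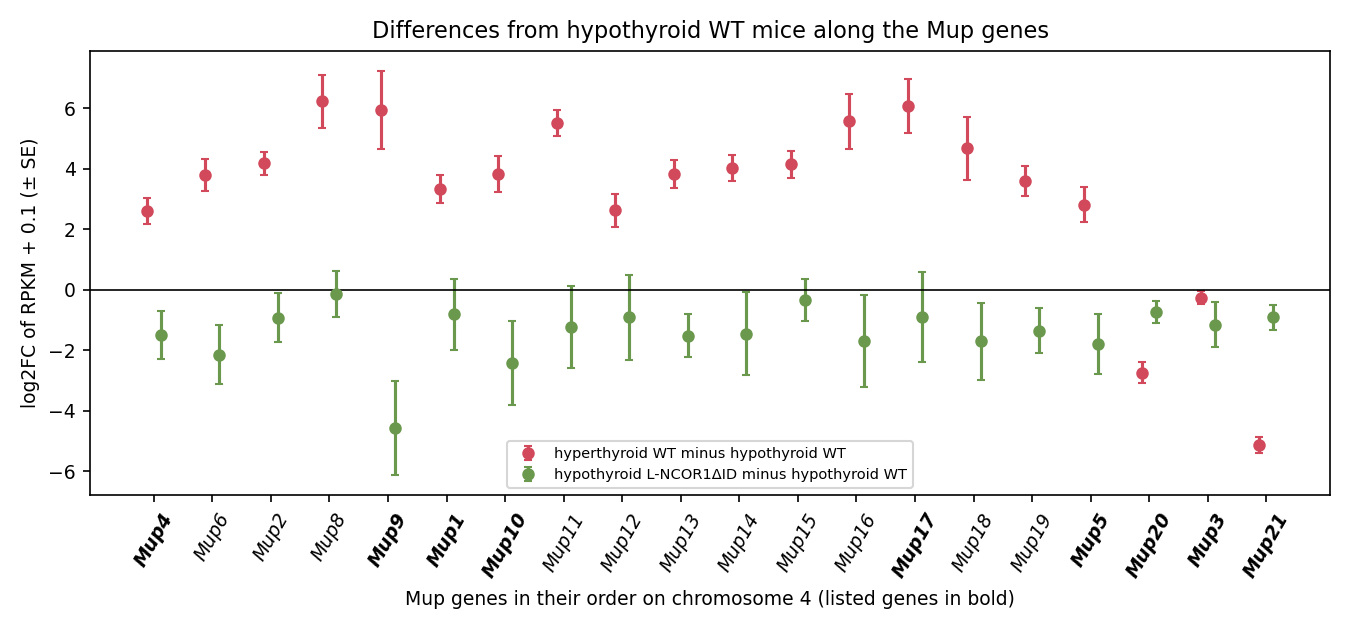
Points give the log2FC (± SE, limma, n = 4 per group) of the 20 Mup genes in their order on chromosome 4, for hyperthyroid WT (red) and hypothyroid L-NCOR1ΔID mice (green), each against the same hypothyroid WT libraries. In red, 17 genes lie above 0 and the last 3 of the cluster, Mup20, Mup3 and Mup21, below 0; in green all 20 lie below 0, with wide error bars.

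Hypothyroid WT mice were not uniform either. Of the 20 Mup genes, 19 had their lowest value in replicate 1 or 4 and all 20 their highest in replicate 2 or 3. Mup20 was the gene with its lowest value in replicate 3, where Mup10, Mup17 and Mup9 had their highest. Replicate 3 is the hypothyroid WT library in which Mup20 and Mup3 held the smallest share of the Mup RPKM. The share of all genes with their ends in these same replicates was not computed. The replicates were picked after the values were seen, so the counts are a description.

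Other genes followed the same library pattern. Likeness was measured as the root mean square difference of centred log2(RPKM + 0.1) over the 12 libraries, among 10643 genes with a mean of at least 1 RPKM that are not named Mup. The pattern of 12 libraries includes the difference between groups, so that genes with a like T3 difference come out near. For Mup17 the nearest were 9030619P08Rik (0.99), Dio1 (1.07) and Slc22a7 (1.15), set against a spread of 3.60 for Mup17 itself. Dio1, the deiodinase that converts thyroxine to T3 and a classic thyroid hormone target, had 0.719, 6.64, 57.7 and 8.98 RPKM in hypothyroid WT mice, which is the order of the libraries for Mup9 and, but for replicates 2 and 4, for Mup17. It had 459 to 641 RPKM in hyperthyroid WT mice and 0.567, 0.591, 20.9 and 12.1 RPKM in L-NCOR1ΔID mice.

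Slc22a7, an organic anion transporter, was among the 3 nearest genes of Mup9, Mup10 and Mup17. It had 2.27, 7.55, 33.1 and 5.89 RPKM in hypothyroid WT mice and 166 to 308 RPKM in hyperthyroid ones. The nearest gene to Mup10 was Gm2083 (0.39), which had 14.6, 97.7, 361 and 65.8 RPKM in hypothyroid WT, 1164 to 1334 RPKM in hyperthyroid WT and 6.38, 0.782, 36.4 and 157 RPKM in L-NCOR1ΔID mice. The table places Gm2083 in the same chromosome band as Mup1, and whether it shares reads with Mup10 was not tested. Mup genes were recognised by symbol alone, so whether Gm2083 is itself a member of the family was not tested either. The sums over Mup genes leave it out. Nearest to Mup9 were Ces4a (1.38), Slc22a7 (1.82) and Dio1 (1.95). Mup1, Mup4 and Mup5 shared Acsm2 and Cyp2c39 among their 3 nearest genes.

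Mup20 and Mup21 had other neighbours in pattern. Nearest to Mup20 were Cyp2d9 (0.41), Keg1 (0.43) and Alas2 (0.44), with a spread of 1.28 for Mup20 itself. Cyp2d9, a male-biased cytochrome P450, had 619 to 793 RPKM in hypothyroid WT, 120 to 167 RPKM in hyperthyroid WT and 439, 245, 481 and 523 RPKM in L-NCOR1ΔID mice. Nearest to Mup21 were Hectd2 (0.46), its antisense RNA Hectd2os (0.57) and Cyp4a12a (0.72), and reads of Hectd2 and Hectd2os may not be told apart. Cyp4a12a, a male-biased fatty acid hydroxylase, had 203 to 217 RPKM in hypothyroid WT and 5.27 to 19.2 RPKM in hyperthyroid WT mice. The summed level of the 9 genes was nearest to Pdilt (0.25), Cmah (0.38) and Lyrm7 (0.40).

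**Figure D5:**
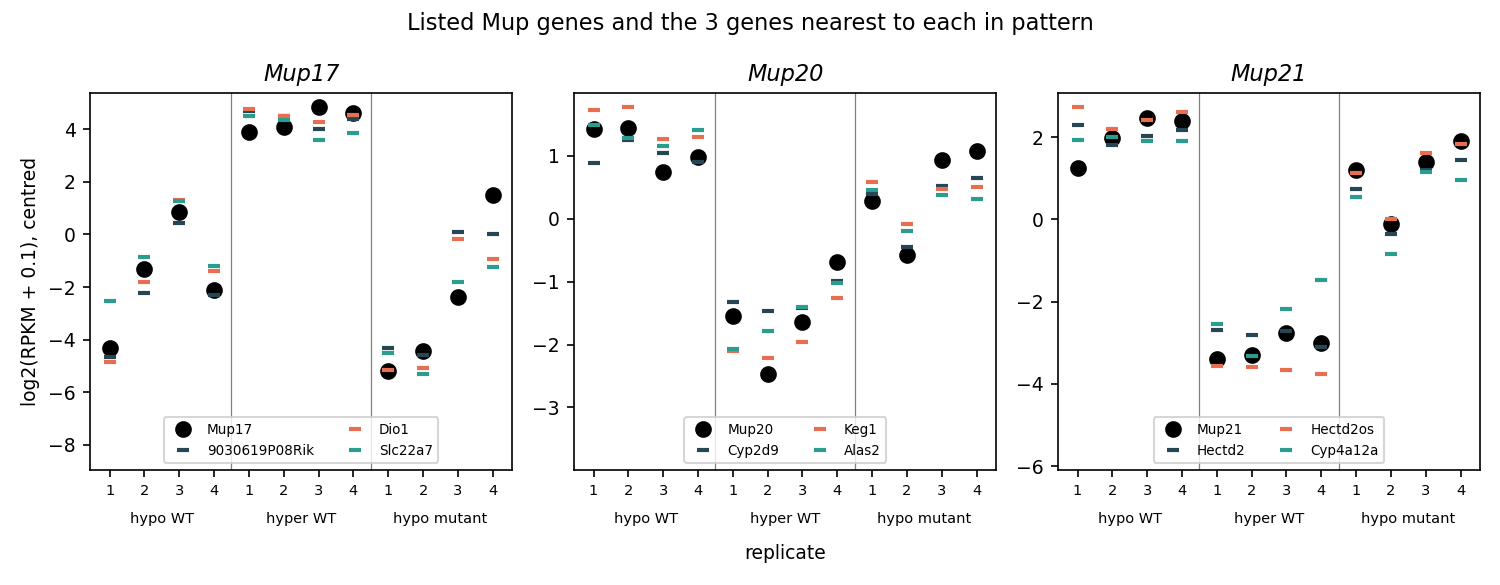
Each panel plots log2(RPKM + 0.1), centred on the mean of the 12 libraries, by replicate for 1 listed Mup gene (black dots) and the 3 genes nearest to it in pattern (dashes); hypo mutant stands for hypothyroid L-NCOR1ΔID mice. For Mup17, hypothyroid WT replicate 3 and L-NCOR1ΔID replicate 4 stand above the other hypothyroid libraries, and for Mup20 and Mup21 the 4 hyperthyroid libraries are the lowest of the 12.

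Sex-biased genes of the liver were a list with members in both directions. Of 12 male-biased genes, 3 rose (Elovl3, log2FC 3.37, Cyp7b1, 1.71, and Serpina12, 1.60) and 5 fell after T3 (limma, Benjamini-Hochberg), with a median of -1.35. Among those that fell were Cyp4a12b (-7.06) and Cyp4a12a (-4.33), fatty acid hydroxylases, Cyp2d9 (-2.32) and C6 (-2.05), a complement component. With the median scaling 7 fell. In L-NCOR1ΔID mice 0 of the 12 was called, with a median of -0.79.

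Of 14 female-biased genes 13 were tested after T3, and 7 rose while 2 fell, with a median of 2.82. The steroid hydroxylase Cyp17a1 had 0.49 to 2.45 RPKM in hypothyroid and 120 to 315 RPKM in hyperthyroid WT mice (log2FC 7.37), and Cyp3a44 (7.76), Cyp3a16 (7.72) and Sult3a1 (6.22) rose as well, though Cyp3a44 and Cyp3a16 are near copies that may share reads. Acot3, an acyl-CoA thioesterase, was among those that fell (-5.77). In L-NCOR1ΔID mice 1 of 10 tested, Cyp3a16, was higher (log2FC 1.62, at 0.626 to 0.656 RPKM), and the call was lost without hypothyroid WT replicate 2 or 3 or without L-NCOR1ΔID replicate 1, 2 or 3.

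Among genes of growth hormone signalling, 2 of 10 rose after T3. Stat5a, a transcription factor of the pathway, had 1.11 to 2.13 RPKM in hypothyroid and 14.7 to 16.7 RPKM in hyperthyroid WT mice (log2FC 3.34), and its relative Stat5b had 6.48 to 8.71 and 23.98 to 30.5 RPKM (1.76). The growth hormone receptor Ghr, named after its value was seen, had 206 to 231 RPKM against 92.8 to 122 RPKM (-0.98), a size under the threshold, and with the median scaling 1 of the 10 genes was called lower. In L-NCOR1ΔID mice 1 of 10 differed, Igfals, which encodes a partner of insulin-like growth factor in the blood (-0.67), and without any 1 of the 8 libraries it was not called.

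Of 10 transcription regulators with a known part in Mup expression, Cebpb, a C/EBP factor of the acute phase, rose after T3 (log2FC 2.31) and in L-NCOR1ΔID mice (1.32). The second call was lost without hypothyroid WT replicate 4 or L-NCOR1ΔID replicate 3. The other 9 genes, the thyroid hormone receptors Thra and Thrb among them, were not called in either comparison. After T3, the glucocorticoid receptor Nr3c1 (log2FC 0.73, limma adjusted p = 0.00012) and Hnf4a (0.42, limma adjusted p = 0.0041) missed the call by the fold threshold only. They were named after their values were seen. The list's median log2FC was 0.17 after T3.

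Of 10 other lipocalins tested, 1 rose after T3 and 0 fell, with a median log2FC of 0.47. It was Ptgds, a prostaglandin synthase, with 0.160 to 2.02 RPKM in hypothyroid and 3.58 to 13.3 RPKM in hyperthyroid WT mice (log2FC 3.13), and the call was lost without hypothyroid WT replicate 4. Obp2a, an odorant-binding protein, fell in L-NCOR1ΔID mice (log2FC -5.45), with 1.72 to 17.8 RPKM in hypothyroid WT and 0.033 to 0.146 RPKM in the mutant. That call was lost without hypothyroid WT replicate 3 or 4 or L-NCOR1ΔID replicate 1 or 3.

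Markers of other cells moved with T3 as well. The 5 Kupffer cell and macrophage markers with a row (Clec4f, Cd5l, Vsig4, Adgre1 and Marco) all rose, and their summed level was 35.6 to 50.1 RPKM in hypothyroid WT, 117 to 197 RPKM in hyperthyroid WT and 42.4 to 115 RPKM in L-NCOR1ΔID mice. Of 8 hepatocyte markers 2 fell, Alb and Ttr, and the summed level of the list was 39784 to 51361 RPKM against 20910 to 29739 RPKM. Without hypothyroid WT replicate 3 or 4, or hyperthyroid WT replicate 1 or 3, 1 of the 8 fell. Stellate cell (77.2 to 87.3 against 45.6 to 64.1 RPKM), endothelial, bile duct and lymphocyte lists had 1, 1, 1 and 0 genes called higher. The bile duct call was lost without hypothyroid WT replicate 1, 3 or 4 or hyperthyroid WT replicate 1 or 2. In L-NCOR1ΔID mice 0 genes of these 6 lists were called at an adjusted p under 0.01 by limma. The part of these shifts in the Mup levels was not tested.

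None of the protein-coding genes next to the cluster was called. Of the 3 on each side, Slc46a2 was listed at 0 in all 12 libraries, 1110054O05Rik had no row, and Zfp37 was at most 0.226 RPKM and was not tested after T3. Snx30, a sorting nexin, had a log2FC of 0.48 ± 0.18 (limma adjusted p = 0.0520), Slc31a2, a copper transporter, 0.32 ± 0.09 (adjusted p = 0.0137) and Fkbp15 0.24 ± 0.08 (adjusted p = 0.0268). The median over all genes tested was 0.23.

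Acetylated regions are given as positions only. The deposited list merges regions of H3K27 or H3K9 acetylation, marks of active promoters and enhancers, found in WT liver in either thyroid state, so that it cannot show a difference between the states. It held 46 regions within the span of the Mup genes, which covered 12.5% of it. The start site lay in a region for 8 of the 10 listed genes (Mup7, Mup9, Mup1, Mup10, Mup17, Mup20, Mup3 and Mup21) and for 4 of the other 11. The share of all genes with a start site in a region was not computed, so these counts describe positions only. The region at Mup3 (chr4:61741770-61766031) was the longest of the cluster, with 24262 bases, and those at Mup17 (chr4:61252224-61265675), Mup20 (chr4:61714102-61722300) and Mup21 (chr4:61807622-61813883) spanned 13452, 8199 and 6262 bases. Mup5 had its nearest region 8.07 kb from the start, and Mup4, at the other end of the cluster, 89.4 kb away. Reads from near-identical copies limit what can be placed here too.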

How the data were processed

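Liver poly(A) RNA-seq of 12 male mice (3 groups of 4) was analysed. Per the labels and methods, the authors aligned reads to mm9 with STAR, kept unique alignments and deposited RPKM per transcript, quantified with HOMER. Versions were not given in the sources used here. Of 31370 transcripts, 1 without a gene name was left out. Depth was read only as relative steps of low RPKM values, so no counting interval is given.

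A gene entered a comparison when 4 or more of its libraries reached 0.1 RPKM, and log2(RPKM + 0.1) was fitted by limma 3.58.1 (R 4.3.3), using a variance trend, with p-values adjusted by Benjamini-Hochberg over every gene entered. p-values measure the spread between 4 mice per group. Replicate numbers were not taken as pairs in the main fit. Groups came from the labels. Named were the 10 genes, the other Mup genes, 3 neighbours on each side, the 3 genes nearest in pattern, and from each list up to 4 called genes per direction. The members and lists were chosen with earlier results of these data known. Alternatives changed the pseudocount, filter, fit, block, trend, scaling, threshold, transcript and libraries. The fit was tested on simulated data. Coding sequences were aligned with mafft 7.526. Python 3.11.15, numpy 2.4.6, pandas 2.3.3 and matplotlib 3.10.9 were used. The deposited acetylated regions were used as positions only. The values of 1 list gene are not reported here.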

Additional observations from a re-analysis of the deposited data

Results flagged for a closer look

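In 3 of the 30 groups of 4 libraries tested, 1 library lay far from the other 3 on the RPKM scale. The measure was its gap to the nearest other library divided by the whole range of the group. It was judged by Dixon's critical value for 4 samples, which normally distributed values exceed in about 1 in 20 groups. That rate need not hold here, since the values were not log-transformed and the genes share the same libraries. The number of groups is therefore a description. For Mup9 in hypothyroid WT mice the gap was 0.877 of the range, with replicate 3 at 736 RPKM. For Mup9 in L-NCOR1ΔID mice it was 0.951, with replicate 4 at 25.9 RPKM. For Mup17 in L-NCOR1ΔID mice it was 0.941, with replicate 4 at 737 RPKM.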

How the results depend on the processing

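Of the listed genes, 6 were called higher after T3, and 3 when all 12 libraries entered 1 fit. Leaving out 1 library gave 4 to 6: Mup5 lost its call without hypothyroid WT replicate 1 or hyperthyroid WT replicate 1 or 3, and Mup9 without hypothyroid WT replicate 2 or 4 or hyperthyroid WT replicate 3 or 4. The 2 lower calls remained 2 in number throughout. In L-NCOR1ΔID mice 0 listed genes were called under all 19 alternatives. Over all genes, a pseudocount of 1 gave 575 higher and 319 lower calls after T3. In L-NCOR1ΔID mice, 100 genes were higher and 75 lower. With all 12 libraries in 1 fit 118 were lower, without a variance trend 63 were higher, and at an adjusted p under 0.05 344 were higher and 257 lower. Leaving out 1 library gave 36 to 110 higher and 28 to 77 lower calls, and leaving out L-NCOR1ΔID replicates 1 and 2, chosen after seeing the data, gave 48 higher. With the replicate number as a block, 20 were higher and 25 lower. Deviations of same-numbered libraries from their group means had correlations from -0.08 to 0.10 after T3 and from -0.21 to 0.28 in L-NCOR1ΔID mice. The numbers were not taken as pairs in the main fit. Whether same-numbered libraries were handled together cannot be told from these correlations. The summed log2 ratio after T3 was 2.16 without Mup20 and 0.92 to 1.10 with 1 library left out. In L-NCOR1ΔID mice it was -0.095 without replicates 1 and 2 and -1.26 to -0.45 with 1 library left out. The median share of windows found once was 30.5% at 50 bases, 44.3% at 75 and 54.9% at 100. The cause of these shifts was not tested. Windows shared between near-identical copies limit Mup1 and Mup9, and values near the pseudocount limit Mup4 and Mup5.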
